A study of Mus musculus with 26 samples.

Results

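Domain boundaries that lie within long genes were examined in mouse embryonic stem cells (ESCs) in the G1 phase of the cell cycle. A boundary was taken when its whole 25 kb interval lay between the start and the end of at least 1 protein-coding gene of 200 kb or more as annotated by RefSeq on GRCm38.p6 (mm10). Of 3515 boundaries in the list, 333 met this rule, a share of 9.47% (95% Wilson interval 8.55 to 10.5%). Another 443 boundaries lay inside shorter protein-coding genes only, and 2739 lay inside no protein-coding gene. The 333 boundaries fell in 305 host genes. The rule used gene positions and no measured strength of the boundaries. The length limit split genes of nearly equal size: Pcbp3 (200.3 kb), Dysf (202.7 kb) and St3gal3 (202.8 kb) were the shortest hosts, while Atp9b (199.9 kb), Clec16a (199.6 kb) and Svil (198.8 kb) each held 1 boundary and were just too short.

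The study applied Micro-C, an assay that cuts chromatin with micrococcal nuclease and joins neighbouring ends to record contacts, to 26 libraries in 5 groups. All groups came from a single RAD21-dTAG cell line derived from Bruce-4 ESCs, with the genotype given as C57BL/6J, in which the cohesin subunit RAD21 carries a degradable tag. ESCs were given 500 nM dTAG to degrade RAD21 (6 libraries), 20 µM A485 to inhibit the acetyltransferases p300 and CBP (6 libraries), or 0.05% v/v DMSO as vehicle (6 libraries), and epiblast-like cells were given dTAG (4 libraries) or DMSO (4 libraries). The growth protocols of dTAG and A485 replicates 4 to 6 mention epiblast-like cells although the libraries are labelled ESC, and none of them enters a value here. The boundary list came from the 6 DMSO-treated ESC libraries pooled by the authors, so the control cells also carried the tagged RAD21. It holds positions without a score, has no values for single libraries and gives no contact depth. There was therefore no replicate error and no test between groups, and every interval below covers counting error only. The dTAG, A485 and epiblast-like groups were not analysed here.

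Topologically associating domains are stretches of chromosome that contact themselves more than their neighbours. Cohesin extrudes loops of chromatin and is held up at sites bound by CTCF, and boundaries in mammalian genomes are known for CTCF sites and for the promoters of active genes. A boundary in the interior of a gene, long or short, puts the annotated outer ends of that gene into different domains. A transcript from an internal start need not cross it. Many of the longest mammalian genes encode adhesion molecules, channels and synaptic proteins of neurons.

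A small set of boundaries carried a gene start in the interior of the host, either an internal start of the host itself or the start of a nested gene. The promoter windows, taken from RefSeq on GRCm38.p6 and running from 250 bases before to 50 after a start, fell in these intervals 38 times, 11 of them at a start of the host. The 6 windows below were chosen after their values were seen, to show both kinds of start and both base compositions. Capitals mark a match to AGGGGGC or AGGTGGC, forms of the core of the CTCF motif, on either strand; GCCCCCT and GCCACCT are the reverse complements. Windows without capitals held no match. Internal means inside the annotated gene, and the boundary with the Disc1 start lay only 1.23 kb from the annotated 5′ end of that gene.
Cacna1c, internal host start, chr6:119108446-119108745, minus strand: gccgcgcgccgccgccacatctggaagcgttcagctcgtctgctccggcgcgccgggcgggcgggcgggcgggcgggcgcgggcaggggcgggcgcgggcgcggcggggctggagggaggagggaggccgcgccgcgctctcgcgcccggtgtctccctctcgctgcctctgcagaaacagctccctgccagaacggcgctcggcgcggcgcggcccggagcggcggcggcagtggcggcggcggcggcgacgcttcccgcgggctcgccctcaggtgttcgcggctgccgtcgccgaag
Dab1, internal host start, chr4:104367288-104367587, plus strand: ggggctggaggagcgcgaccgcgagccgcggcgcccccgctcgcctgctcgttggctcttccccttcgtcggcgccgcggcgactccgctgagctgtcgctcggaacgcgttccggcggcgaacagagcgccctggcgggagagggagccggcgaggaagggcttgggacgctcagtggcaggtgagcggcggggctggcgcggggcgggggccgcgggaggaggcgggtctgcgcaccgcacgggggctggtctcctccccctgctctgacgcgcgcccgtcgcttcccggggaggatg
Disc1, internal host start, chr8:125053945-125054244, plus strand: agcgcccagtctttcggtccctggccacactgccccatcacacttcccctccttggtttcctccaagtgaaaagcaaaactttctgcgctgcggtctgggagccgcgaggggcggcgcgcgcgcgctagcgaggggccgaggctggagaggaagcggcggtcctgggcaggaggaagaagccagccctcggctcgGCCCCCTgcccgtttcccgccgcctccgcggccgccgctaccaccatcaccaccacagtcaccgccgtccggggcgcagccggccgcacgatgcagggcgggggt
Insyn2a, nested in Dock1, chr7:134938381-134938680, minus strand: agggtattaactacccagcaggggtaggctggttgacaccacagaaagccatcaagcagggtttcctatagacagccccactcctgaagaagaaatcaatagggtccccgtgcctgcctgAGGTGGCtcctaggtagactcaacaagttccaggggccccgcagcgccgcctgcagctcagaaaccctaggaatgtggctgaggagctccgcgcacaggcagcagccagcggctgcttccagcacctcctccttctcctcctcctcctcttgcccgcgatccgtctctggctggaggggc
Lrrtm3, nested in Ctnna3, chr10:64090206-64090505, minus strand: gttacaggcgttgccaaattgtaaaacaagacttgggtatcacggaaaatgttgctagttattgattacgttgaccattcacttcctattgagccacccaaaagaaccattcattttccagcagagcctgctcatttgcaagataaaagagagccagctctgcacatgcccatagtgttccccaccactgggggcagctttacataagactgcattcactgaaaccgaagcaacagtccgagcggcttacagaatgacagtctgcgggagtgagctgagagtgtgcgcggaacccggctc
Trim32, nested in Astn2, chr4:65604736-65605035, plus strand: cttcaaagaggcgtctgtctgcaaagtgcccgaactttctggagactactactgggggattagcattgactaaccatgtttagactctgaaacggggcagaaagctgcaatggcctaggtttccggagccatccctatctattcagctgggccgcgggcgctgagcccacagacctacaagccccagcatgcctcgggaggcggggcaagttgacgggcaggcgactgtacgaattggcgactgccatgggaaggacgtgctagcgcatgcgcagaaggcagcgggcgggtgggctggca

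The Cacna1c window was 81.3% G and C with 57 CpG dinucleotides, and the Dab1 window 77.3% with 46. Cacna1c encodes a pore subunit of L-type calcium channels, and Dab1 the adaptor that relays reelin signals. The Lrrtm3 window had 48.7% G and C with 10 CpG dinucleotides, and the Trim32 window 59.3% with 18. Lrrtm3 encodes a postsynaptic adhesion protein and Trim32 an E3 ubiquitin ligase. Over all 38 windows the median was 46.2% G and C and 5.5 CpG dinucleotides, against 56.7% and 15 in the 1957 windows in any boundary and 52.7% and 7 in all 32851 windows. The motif letters occurred in 4 of 38 windows (10.5%, 4.17 to 24.1%), those of Abr, Disc1, Insyn2a and Rap1gap2. They occurred in 390 of 1957 windows in any boundary (19.9%) and in 5259 of all windows (16.0%). The interval of the 38 windows holds both other shares, and a promoter window covers only a small piece of a 25 kb interval.

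A single boundary held a group of miRNA genes. It lay at chrX:147000001-147025000, 37.5 kb from the start of Htr2c, the gene of the serotonin receptor 2C, and contained Mir764, Mir1912 and Mir1264. Mir717 lay in a boundary at chrX:52400001-52425000 inside Gpc3, which encodes the heparan sulphate proteoglycan glypican 3. The mature sequences from RefSeq are shown because these are the only miRNAs of the RefSeq table used here that lie inside the intervals, with the seed (bases 2 to 8) in capitals.
mmu-miR-764-5p: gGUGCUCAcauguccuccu
mmu-miR-764-3p: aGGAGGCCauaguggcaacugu
mmu-miR-1912-3p: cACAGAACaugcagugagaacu
mmu-miR-1264-3p: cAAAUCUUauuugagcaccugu
mmu-miR-717: cUCAGACAgagauaccuucucu

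No seed was shared among these 5 sequences. Another 4 miRNA genes lay within 10 kb of an interval without being inside it. Gm22650, the gene of miR-3552, was 0.492 kb from the Htr2c boundary. Mir7656 in Slc9a9 was 1.83 kb away, the nearer mature sequence of Mir7223 in Prkca 3.09 kb and Mir496b in Gnaq 10.0 kb. Of the bins inside long genes, 2 of 90 with a miRNA gene end were boundaries (2.22%, 0.612 to 7.74%), against 2.10% of those without.

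Boundaries were sparser inside long genes than over the genome. The genome from the first to the last gene or boundary of each chromosome was divided into 102785 bins of 25 kb, and 3.42% of them were boundaries. Of 15825 bins wholly inside genes of 200 kb or more, 333 were boundaries (2.10%, 1.89 to 2.34%), or 0.842 per Mb (exact Poisson interval 0.754 to 0.937 per Mb). Bins inside shorter genes only were boundaries in 443 of 12296 cases (3.60%, 3.29 to 3.95%). Bins clear of every protein-coding gene had 1040 boundaries in 49981 (2.08%, 1.96 to 2.21%). Bins that held an end of a protein-coding gene and lay inside none had 1699 in 24683 (6.88%, 6.57 to 7.21%). The interval for long genes overlapped that of the bins clear of genes and lay below those of shorter genes and of gene ends.

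**Figure D1:**
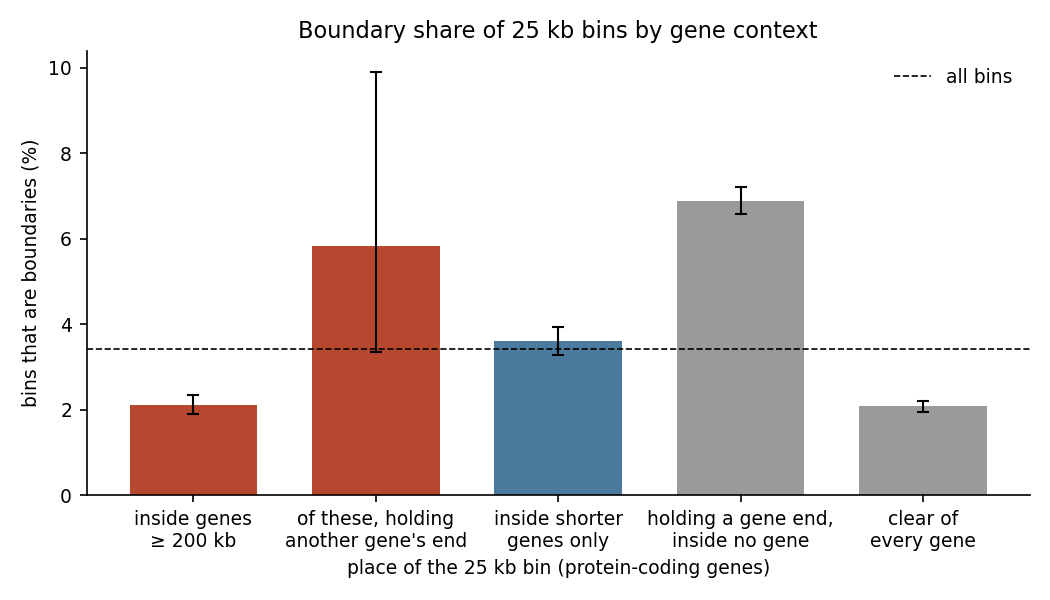
Share of 25 kb bins that are boundaries (vertical axis, percent) by the place of the bin relative to protein-coding genes, with 95% Wilson intervals and a dashed line at 3.42% for all bins. Bins inside genes of 200 kb or more stood at 2.10%, close to the 2.08% of bins clear of every gene, and the 206 of them with another gene's end at 5.83%.

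The share was highest next to the gene's ends and level further in. Of bins less than 25 kb from the nearer end of a long gene, 89 of 1963 were boundaries (4.53%, 3.70 to 5.55%). From 25 to 50 kb the share was 46 of 1962 (2.34%, 1.76 to 3.11%). It was 1.72% from 50 to 100 kb, 1.60% from 100 to 200 kb, 1.69% from 200 to 400 kb and 1.65% beyond 400 kb (22 of 1337, 1.09 to 2.48%). At 50 kb or more it came to 198 of 11900 bins (1.66%, 1.45 to 1.91%), or 0.666 per Mb. That interval lay below the 1.96 to 2.21% of bins clear of every protein-coding gene, which were not matched for distance to a gene end. The outermost bins of shorter genes had nearly the same share as those of long genes, 390 of 8407 (4.64%, 4.21 to 5.11%). Shorter genes were 1.53% boundaries from 25 to 50 kb and 9 of 1005 bins (0.896%, 0.472 to 1.69%) further in. The higher share of shorter genes over all bins therefore did not appear at a like distance from an end, and 8407 of their 12296 bins were within 25 kb of one.

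The body and the flank of long genes were set side by side at each end. Strand was known for 744 of the 990 genes of 200 kb or more, those with a start in the promoter table. No host on chromosome 18 was among them. The bin that held the start was a boundary in 45 of 744 genes (6.05%, 4.55 to 8.0%), and the bin that held the 3′ end in 66 (8.87%, 7.03 to 11.1%). Into the gene the share was 1.75% at 50 kb from the start and 3.09% at 50 kb from the 3′ end, and 1.21% and 1.61% at 100 kb. At 100 kb outside the gene it was 4.30% before the start and 4.17% past the 3′ end. At the start the intervals of body and flank were apart at 50, 75, 100 and 125 kb and overlapped at 25, 150, 175 and 200 kb, and at 175 kb the order was turned, with 2.79% in the body and 1.61% in the flank. At the 3′ end they were apart at 100 kb only and overlapped at the other 7 distances up to 200 kb, with a lower value in the body at each.

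**Figure D2:**
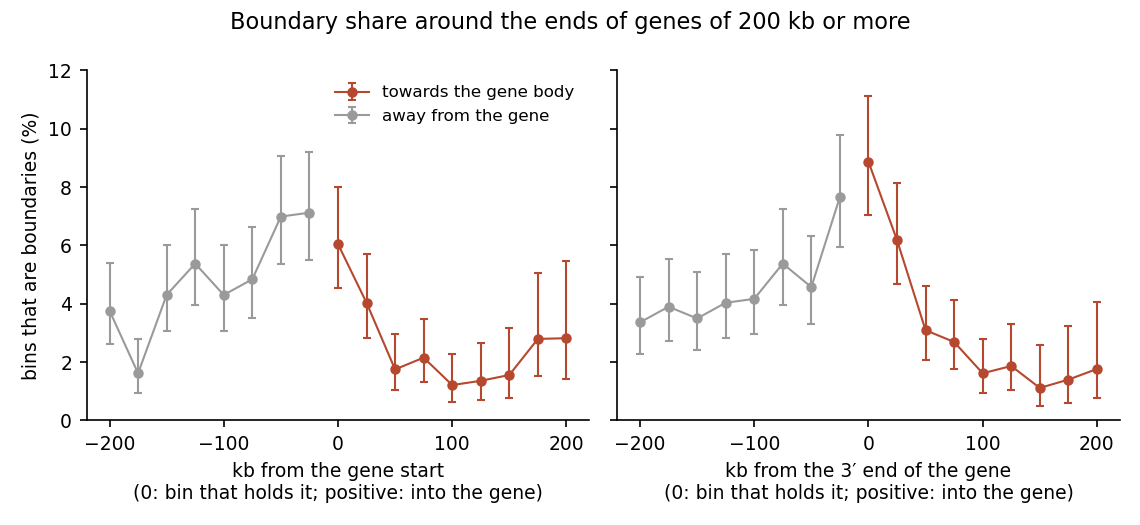
Share of 25 kb bins that are boundaries (vertical axis, percent) by distance in kb from the start (left) and the 3′ end (right) of 744 genes of 200 kb or more, with 95% Wilson intervals. Bins further into the gene than its middle are counted from the other end. The share was 6.05% at the start and 8.87% at the 3′ end, and 1.21% and 1.61% at 100 kb into the gene.

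The boundaries themselves lay a median 72.4 kb from the nearer end of their host, with quartiles of 22.4 and 175 kb. Within 25 kb of an end were 26.7%, within 50 kb 40.5% and within 100 kb 60.4%. For 277 boundaries in hosts of known strand the median position was 56.9% of the way from start to 3′ end. The last stretch, from 80 to 100% of the way, held 82 of them (29.6%, 24.5 to 35.2%), and the opening stretch, from 0 to 20%, held 56 (20.2%, 15.9 to 25.3%). The stretches between held 43, 45 and 51.

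The boundaries nearest to an end were those of Corin, Scaper, Slc39a11, Sh3kbp1 and Itga9. The interval in Corin, the protease that activates atrial natriuretic peptide, stopped 0.053 kb short of the 3′ end. That in Scaper was 0.122 kb from the 3′ end, with the gene of the motor neuron factor Isl2 alongside. That in Slc39a11, a zinc transporter, was 0.200 kb from the start and had ends of Cog1, a Golgi complex subunit, and of the somatostatin receptor gene Sstr2 nearby. The intervals in Sh3kbp1, an endocytic adaptor, and Itga9, the integrin α9 chain, were 0.920 and 1.00 kb from the 3′ end. These 5 lay inside their hosts only narrowly.

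At the other extreme, 1 boundary of Dmd, which encodes dystrophin, lay 1060 kb from the nearer end, at chrX:83875001-83900000, and its other boundary 755 kb from an end. Dlg2, the gene of the postsynaptic scaffold PSD-93, had a boundary 949 kb from an end, at chr7:91425001-91450000. Lsamp, the limbic system-associated adhesion protein, had one 932 kb inside, and Nrxn3, a presynaptic neurexin, one 727 kb inside. These 5 are the deepest of the 333, and only the Dmd boundary had another protein-coding gene's end within 10 kb, that of Gm46696.

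A long gene held a boundary in 305 of 990 cases (30.8%, 28.0 to 33.8%), with 1 boundary in 275 genes, 2 in 28 and 3 in 2. Hosts were longer, with a median of 414 kb and a range of 200 to 2390 kb, against a median of 298 kb for the 685 genes without. The share of genes that held a boundary was 19.6% at 200 to 300 kb (85 of 433), 31.2% at 300 to 400 kb, 27.2% at 400 to 500 kb, 47.9% at 500 to 750 kb, 51.0% at 750 to 1000 kb and 67.8% at 1000 kb or more (40 of 59). The density per Mb did not follow the same order. It was 0.905, 1.02, 0.669, 0.884, 0.863 and 0.692 per Mb over the same 6 classes, and each interval overlapped every other. The longer genes held a boundary more often while the number per Mb showed no order by length.

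**Figure D3:**
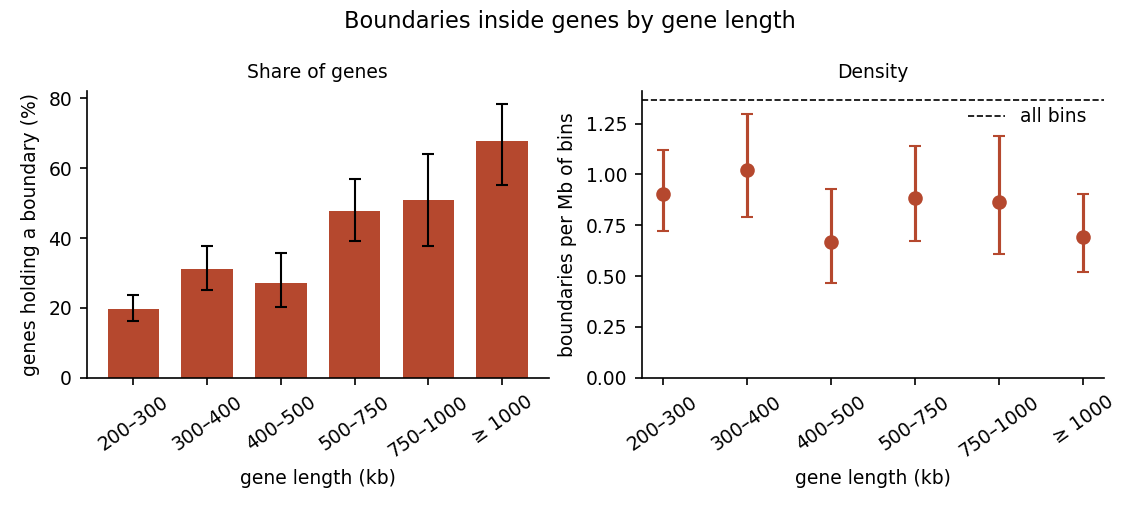
Share of genes that hold a boundary (left, percent, with Wilson intervals) and boundaries per Mb of 25 kb bins inside (right, with exact Poisson intervals; dashed line, all bins of the genome) by gene length in kb. The share was 19.6% in the shortest class and 67.8% in the longest, and the density lay between 0.669 and 1.02 per Mb.

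Of the 20 longest genes, 16 held a boundary. Dmd (2390 kb), Lsamp (2197 kb) and Dlg2 (1973 kb) held 2 each. Ptprd (2271 kb), a receptor phosphatase that organises synapses, Macrod2 (1998 kb), an ADP-ribose hydrolase, Nrxn3 (1612 kb) and Ctnna3 (1574 kb), an α-catenin, held 1 each. Robo2 (1555 kb), a Slit receptor, Pcdh15 (1554 kb), a protocadherin of hair cell tip links, and Rbfox1 (1528 kb), a splicing regulator, also held 1 each. The boundary of Macrod2 was 54.7 kb from its start, while that of Ptprd was 612 kb from an end.

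The longest genes without a boundary inside were Cntnap2 (2241 kb), an axonal adhesion protein of the neurexin family, Lrp1b (2058 kb), a lipoprotein receptor relative, Csmd1 (1643 kb) and Fhit (1612 kb), a diadenosine triphosphate hydrolase. Lrrc4c, Tenm3, Il1rapl2, Lingo2, Csmd3 and Nkain2 followed, at 1208 to 1314 kb. Lrp1b, Csmd1, Csmd3 and Nkain2 had a boundary at an end, within 10 kb, and the other 6 had none there. Cntnap2 lay whole in a domain of 3075 kb, Lrrc4c in one of 4200 kb and Tenm3 in one of 2225 kb. Altogether 543 of 990 long genes (54.8%, 51.7 to 57.9%) lay wholly between neighbouring boundaries, in domains of 875 kb at the median.

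The genes with most boundaries were Pde4d and Robo1, with 3 each. Pde4d encodes a phosphodiesterase that breaks down cyclic AMP. Its boundaries lay 546, 896 and 1096 kb from its start and cut domains of 325 and 175 kb out of the gene. Robo1 encodes a receptor for Slit guidance cues. Its boundaries lay 172, 572 and 947 kb from its start, and the domains between them were 375 and 350 kb long. Neither gene had a boundary within 10 kb of an end.

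Among the 28 genes with 2 boundaries, both positions differed widely. Chosen after their values were seen, Tanc2, Prkg1 and Trpc5 had a boundary close to each end. In Tanc2, a synaptic scaffold gene, the distances were 10.5 kb from the start and 4.30 kb from the 3′ end. In Prkg1, a kinase activated by cyclic GMP, they were 15.3 and 10.5 kb, and the domain between was 1125 kb long. In Trpc5, a cation channel, they were 13.2 and 22.7 kb. Most of each of these genes was 1 domain of its own. In Dlgap1, Anks1b and Dlg2, by comparison, no boundary lay within 100 kb of an end.

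**Figure D4:**
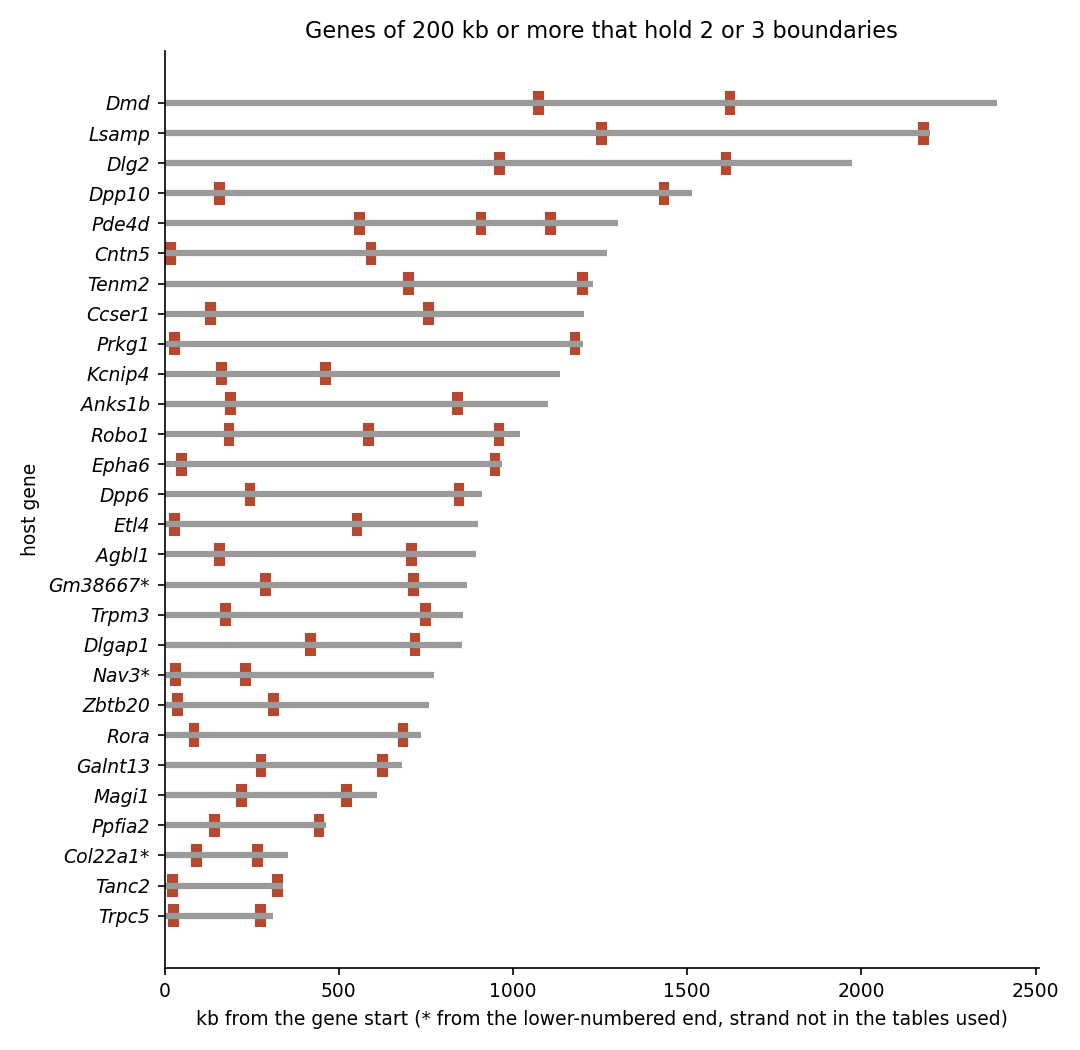
Positions of the boundaries (red, 25 kb wide, to scale) in 28 of the genes that hold 2 or 3 of them (grey, gene body), in kb from the gene start or, where marked *, from the lower-numbered end; overlapping loci are drawn once. Pde4d and Robo1 held 3 each, and Tanc2, Prkg1 and Trpc5 a boundary near each end.

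The stretches between 2 boundaries of the same gene formed 30 domains, with a median of 437.5 kb. The shortest, 150 kb, lay in the collagen gene Col22a1 and the longest, 1250 kb, in Dpp10, whose product modulates potassium channels. The domains on either side of all 333 boundaries had a median of 550 kb (quartiles 325 and 875 kb), against 450 kb for boundaries inside shorter genes, 500 kb for those inside no gene and 500 kb for the whole list. The quartiles of these groups overlapped over most of their range. A domain of 150 kb, the minimum, lay for example beside boundaries of Corin, Cped1 and the scaffold gene Frmd4a too. The longest neighbouring domain, 4625 kb, lay beside the boundary of Pola1, the catalytic subunit of DNA polymerase α. The boundaries of Cdkal1 (4275 kb), Diaph2 (3550 kb), Ralyl (3400 kb) and Ctnna2 (3250 kb) came next.

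Long genes also met boundaries at their own ends. A boundary held an end of the gene or lay within 10 kb of it for 254 of 990 long genes (25.7%, 23.0 to 28.5%), against 3681 of 20531 shorter protein-coding genes (17.9%, 17.4 to 18.5%) and 18.3% of all protein-coding genes. Either end counted. The ends of a long gene are 200 kb or more apart, while both ends of a shorter gene can lie near the same boundary. Long and shorter genes were not compared per end. Among hosts the share was 69 of 305 (22.6%, 18.3 to 27.6%), and among long genes without a boundary inside 185 of 685 (27.0%, 23.8 to 30.5%). These intervals overlapped. Boundaries both inside and at an end occurred in 69 genes (6.97%), inside only in 236 (23.8%), at an end only in 185 (18.7%) and at neither place in 500 (50.5%). A single boundary inside the gene and within 10 kb of its end counted in both places, and 47 of the 333 boundaries lay that way. Among the 744 genes with a strand, 81 had a boundary at the start (10.9%, 8.85 to 13.3%), 112 at the 3′ end (15.1%, 12.7 to 17.8%) and 7 at both.

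Few of the boundaries lay next to another protein-coding gene. An end of a protein-coding gene, the host included, lay in the interval or within 10 kb for 58 of 333 (17.4%, 13.7 to 21.9%), against 64.3% of the whole list. The rule fixes much of this gap, because it removes boundaries that cross a gene end. A host end was near in 47 cases (14.1%) and an end of another protein-coding gene in 24 (7.21%, 4.89 to 10.5%). With genes of any class, 28.8% had an end of another gene near. Inside the interval itself, 12 of the 333 held another protein-coding gene's end, beside 206 of the 15825 bins inside long genes. Ends of long noncoding RNA genes were near in 48 (14.4%, 11.0 to 18.6%), against 30.3% of the whole list and 21.9% of boundaries inside shorter genes only. Among bins inside long genes, those that held such an end were boundaries about as often as the others, as given below. With genes of every class counted, 213 boundaries (64.0%, 58.7 to 68.9%) had no gene end within 10 kb, against 20.5% of the whole list. The share was 32.3% for boundaries inside shorter genes only. Protein-coding ends are part of this count, so the rule also fixes part of the gap to the whole list.

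Where another protein-coding gene did end inside a long gene, boundaries were denser. Of 206 bins inside long genes that held such an end, 12 were boundaries (5.83%, 3.36 to 9.90%), against 321 of 15619 without one (2.06%, 1.84 to 2.29%). These bins were not matched for distance to an end of the host. Bins with an end of a long noncoding RNA gene showed no such difference, at 2.07% (1.43 to 2.97%) against 2.11% without. Bins with a pseudogene end stood at 1.45% (0.763 to 2.73%) against 2.13%. Bins with an internal or first start of the host stood at 11 of 367 (3.00%, 1.68 to 5.29%) against 2.26% of those without. At 50 kb or more from an end that comparison was 4 of 243 (1.65%, 0.642 to 4.16%) against 1.81%.

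The nested genes at these boundaries were of several kinds. Lrrtm3 starts inside Ctnna3, and the boundary at chr10:64075001-64100000 that held its start lay 645 kb from the nearer end of the host. Trim32 starts inside Astn2, the gene of the neuronal migration protein astrotactin 2, and its boundary lay 219 kb from the 3′ end of the host. Insyn2a, a component of inhibitory synapses, starts inside Dock1, an activator of Rac, with its boundary 224 kb from an end. In 11 of the 24 cases with another gene's end nearby, no host end was within 10 kb. By the promoter table, 23 other genes start in the intervals, 9 protein-coding and 14 long noncoding. None of the 23 is on chromosome 18, where no host had a known strand, so the counts may be incomplete there. Of the 22 in a host of known strand, 20 ran opposite to the host (90.9%, 72.2 to 97.5%), and the share was 634 of 744 (85.2%, 82.5 to 87.6%) for all such starts inside long genes.

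The clustered protocadherins gave the only boundary with ends of 3 or more other protein-coding genes. Gm37013, Gm38666 and Gm38667 are annotated as overlapping loci of 868 to 889 kb that span the clusters on chromosome 18, and 51 of 57 clustered protocadherin genes lie inside Gm38667. The 2 boundaries in them are the only ones held by more than 1 long gene. One had an end of Pcdhb1 within 10 kb and the other ends of 7 Pcdhg genes, and the domain between them was 400 kb long. Without these loci the density inside long genes was 0.838 per Mb.

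A total of 384 genes, hosts and others, were grouped into 11 lists. The grouping was by the function of their products or, for common fragile sites, by location. The lists were chosen with earlier results of these data known, cover 123 of the 305 hosts and share no gene. They are described by counts and density beside the value over all 990 long genes, 0.844 per Mb (0.756 to 0.939 per Mb) with overlapping genes counted separately. The density was above that value in 3 of 11 lists. At 50 kb or more from an end, the interval of 10 of the 11 lists held the 1.66% of all long genes. Host shares by list are not adjusted for gene length, and longer genes held a boundary more often.

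Synaptic scaffolds and signalling enzymes had the most hosts for their number. Of 37 long genes, 26 held a boundary (70.3%, 54.2 to 82.5%), against 30.8% of all long genes, and the density was 33 boundaries in 854 bins, or 1.55 per Mb (1.06 to 2.17 per Mb). At 50 kb or more from an end, 27 of 706 bins were boundaries (3.82%, 2.64 to 5.51%), against 1.66% over all long genes. Ank2, which encodes the ankyrin that anchors membrane proteins to spectrin, held a boundary 3.39 kb from its 3′ end, and its relative Ank3 one 177 kb from an end. Anks1b held 2, at 177 and 827 kb from its start. Camk1d, a calcium/calmodulin-dependent kinase, held one 107 kb from its 3′ end, and Dgkb, a diacylglycerol kinase, one 220 kb from its start. Camk2d, Dlg1, Dlgap2, Erc1 and Pde1a were among those without. Without Pde4d the density of the list was 1.49 per Mb.

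Synaptic and neural adhesion genes were longer, with a median of 809 kb, and had fewer boundaries per Mb over all their bins. Of 39 long genes, 14 held a boundary (35.9%, 22.7 to 51.6%), against 30.8% of all long genes. The density was 0.519 per Mb (0.302 to 0.831 per Mb). At 50 kb or more from an end, 13 of 1154 bins were boundaries (1.13%, 0.660 to 1.92%), an interval that holds the 1.66% of all long genes, and the density there was 0.451 per Mb (0.240 to 0.771 per Mb), against 0.666 per Mb. Contactin genes held several, while Cntn3 and Cntn6 held none and had none at an end. Cntn1 had one 92.0 kb from its 3′ end, Cntn4 one 72.4 kb from its start, and Cntn5 a pair at 4.78 and 580 kb from its start. Dscam, a homophilic adhesion molecule, had one 87.5 kb from its 3′ end, and Astn2 the boundary at Trim32. Adgrl3, Cadm2 and Clstn2 held none and had none at an end, while Astn1 and Cadm1 held none but had one at an end.

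Axon guidance genes held boundaries in 5 of 20 cases (25%, 11.2 to 46.9%), against 30.8% of all long genes, at 0.758 per Mb (0.327 to 1.49 per Mb), and 10 of the 20 had a boundary at an end, against 254 of all 990 (25.7%). The netrin receptor gene Dcc and the Slit receptor gene Robo2 held 1 each, at 96.4 and 622 kb from an end. Epha6, an ephrin receptor, held 2, at 35.9 kb from its start and 8.57 kb from its 3′ end. Sema3d, a secreted guidance cue, held one 14.0 kb from its 3′ end. Efna5, Epha3 and Ntng1 had a boundary at an end only, and Epha5 and Ephb1 had none.

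Cadherin, protocadherin and catenin genes were hosts in 7 of 16 cases (43.75%), against 30.8% of all long genes. Their density was 0.575 per Mb (0.231 to 1.18 per Mb). Cdh12 and Cdh20 had boundaries 48.4 and 20.5 kb from the 3′ end. Ctnna2 and Ctnnd2 had theirs 330 and 254 kb from an end. Cdh13 and Cdh2 held none and had none at an end, and Cdh18, Cdh23 and Cdh4 had one at an end only. Receptor-type tyrosine phosphatases were hosts in 4 of 8 cases (50%), against 30.8% of all long genes: Ptprd, Ptprg, Ptprk and Ptpro. Their density was 0.627 per Mb (0.171 to 1.61 per Mb). Ptprm, Ptprn2, Ptprr and Ptprt held none and had none at an end.

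Neurotransmitter receptor and ion channel genes were hosts in 18 of 48 cases (37.5%), against 30.8% of all long genes. Their density was 0.878 per Mb (0.536 to 1.36 per Mb). Calcium channel genes were on both sides. Cacna1c held a boundary 72.4 kb from its start, where the printed internal promoter lies, and Cacna1e one 110 kb from its start. The auxiliary subunit genes Cacna2d1, Cacna2d3 and Cacnb2 held theirs 49.5, 195 and 96.1 kb from an end. Cacna1a and Cacna1d had a boundary at an end only, as had the muscarinic receptor gene Chrm3 and the GABA receptor gene Gabrb1, and Cacnb4 had none.

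Cytoskeleton and matrix genes were hosts in 16 of 37 cases (43.2%), against 30.8% of all long genes. Their density was 1.01 per Mb (0.586 to 1.61 per Mb). Arhgap10 and Arhgap26 held boundaries 118 and 226 kb from an end, and the formin gene Diaph2 one 316 kb from an end. That of the collagen gene Col23a1 was 8.93 kb from its 3′ end, and that of Dock1 held Insyn2a. Arhgap15, Arhgap24, Col25a1, Diaph3 and Dock10 held none and had none at an end.

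Growth factor, receptor and heparan sulphate genes were hosts in 10 of 21 cases (47.6%), against 30.8% of all long genes. Their density was 0.820 per Mb (0.393 to 1.51 per Mb). The receptor kinase genes Alk and Erbb4 and the BMP receptor gene Bmpr1b had boundaries 6.01, 43.1 and 12.9 kb from the 3′ end. Fgf12 and Fgf13, which encode intracellular FGF relatives, had theirs 228 kb from the start and 87.9 kb from the 3′ end. Bmper, Gpc6, Hs3st4 and Hs6st3 had none inside or at an end, and Ext1 had one at an end only.

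Transcription and chromatin factor genes were hosts in 13 of 49 cases (26.5%), against 30.8% of all long genes. Their density was 0.733 per Mb (0.411 to 1.21 per Mb). Auts2, linked to Polycomb complexes, had a boundary 418 kb from an end, and the transcription factor genes Bach2 and Mecom had theirs 11.1 and 48.7 kb from the 3′ end. The zinc finger gene Glis3 and the deacetylase gene Hdac9 had theirs 155 and 242 kb from the start. Arid1b, Bnc2, Camta1, Creb5 and Cux1 had none inside or at an end. RNA-binding protein genes were hosts in 3 of 12 cases (25%), Celf4, Rbfox1 and Rbms3, against 30.8% of all long genes. Their density was 0.480 per Mb (0.0990 to 1.40 per Mb).

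Genes at common fragile sites, places where chromosomes break under replication stress, had a median of 1125 kb. Of the 15 located, 7 held a boundary (46.7%, 24.8 to 69.9%), against 30.8% of all long genes. Among all genes of 1000 kb or more the share was 67.8%. The density of the list was 0.438 per Mb (0.189 to 0.864 per Mb). Dab1 held the boundary at its printed internal start, 370 kb from its 3′ end. Naaladl2 held its boundary 477 kb from an end. Fhit, Dpyd and Immp2l had none inside or at an end, and Csmd1 and Exoc4 had one at an end only.

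**Figure D5:**
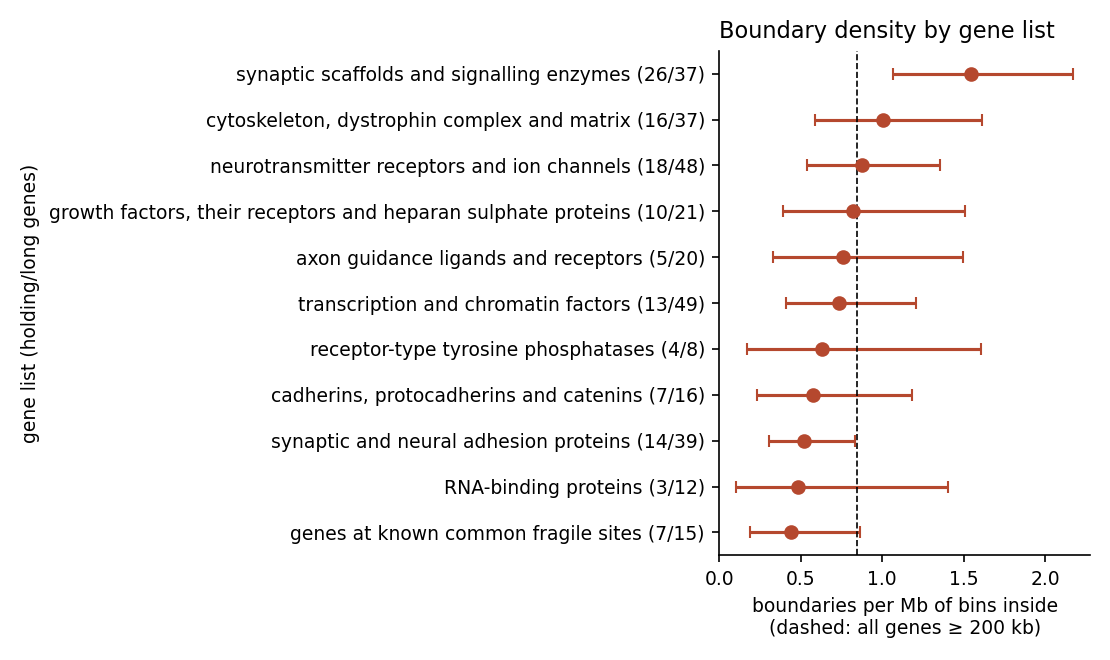
Boundaries per Mb of 25 kb bins inside the long genes of each list (horizontal axis, with exact Poisson intervals), with the hosts and the long genes of each list in brackets and a dashed line for all long genes. Synaptic scaffolds and signalling enzymes stood at 1.55 per Mb, with an interval wholly above the line, and the adhesion genes at 0.519 per Mb, with an interval below it that holds the value of all long genes once bins under 50 kb from an end are left out.

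The boundaries were spread over all 20 chromosomes, with the most on chromosome 1 (28 of its 260) and the fewest on chromosomes 18 and 19 (10 of 136 and 10 of 94). On the X chromosome, 16 of 45 long genes were hosts and held 18 of its 175 boundaries. Over all chromosomes, 30.8% of long genes were hosts and 9.47% of boundaries lay inside long genes.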

How the data were processed

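The positions in the boundary list were deposited by the authors as interval starts and ends in mm10 for the 6 pooled DMSO-treated ESC libraries, and all intervals are 25 kb wide. Per the submitters' processing notes, reads were processed with BWA 0.7.17 and Juicer 1.22.01. The sources used here name no boundary caller or threshold, and the depth per library is unknown. Positions are printed counted from 1.

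Gene positions were those of RefSeq on GRCm38.p6 (49209 located genes, 21521 protein-coding, scaffold genes left out), and strand and starts from its promoter table. A gene end was near a boundary when it lay inside or within 10 kb. Domains run from each boundary to the next. Shares have 95% Wilson intervals and densities exact Poisson intervals. No statistical tests were made, since the list has no replicates. The code that places boundaries in genes and near gene ends was checked only for its computation, on simulated intervals with known answers.

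The members, the gene lists and the rule for named genes were chosen with earlier results of these data known. The rule took hosts with 3 or more boundaries, the 10 longest genes with and without one, up to 5 genes with and 5 without per list in alphabetical order, and the 5 boundaries at each extreme of distance to an end and of neighbouring domain length. A gene that this rule would name is not reported here. Alternatives covered the gene length minimum, midpoint containment, chromosomes, the window and gene class. Values were computed in Python 3.11.15 with pandas 2.3.3, scipy 1.17.1 and numpy 2.4.6, and drawn with matplotlib 3.10.9.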

Additional observations from a re-analysis of the deposited data

How the results depend on the processing

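Of 34 alternatives, 23 left a count within 1.5 times, or a share, density or median inside the interval, of the reported value, and 11 did not. With a minimum gene length of 150 kb the share of genes holding a boundary was 25.3%, and with 300 kb 39.5%, where the median distance to the nearer host end was 107 kb. With only the midpoint inside the gene the share was 38.4% and the density 1.00 per Mb. With gene ends counted inside the interval only, 3.60% of the boundaries had an end of another gene and 15.9% of long genes an own end at a boundary. Within 50 kb these were 21.3% and 51.7%. With genes of any class 28.8% had an end of another gene. Chosen after seeing the data, bins 50 kb or more from a gene end gave 0.666 boundaries per Mb. Longer minimum lengths and wider windows change these values by their construction. No paired analysis was possible because the list is 1 pooled set of positions without values per library. Without a score or contact depth, weak boundaries cannot be told from strong ones, and a 25 kb interval cannot be placed in an exon or an intron with the gene positions used here.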
